A study of Mus musculus with 6 samples.

Results

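The NRF2 antioxidant response was followed through 10 genes: the regulator *Nfe2l2* and its inhibitor *Keap1*, and the targets *Nqo1*, *Hmox1*, *Gclc*, *Gclm*, *Gpx2*, *Txnrd1*, *Srxn1* and *G6pdx*. They form a set named by pathway, chosen with earlier results of these data known, and each was read from the probe set that names it alone. Of the 10, 9 had such a probe set, 1 each, among the 19938 genes compared. *G6pdx* had none and is not analysed here. The arrays measured esophageal epithelium of mice aged 3 months on a mixed genetic background. The group labelled mutant (3 mice, ED-L2-Cre/Klf4loxp/loxp) carried *Klf4* flanked by loxP sites on both copies together with Cre under the ED-L2 promoter, which is active in squamous epithelium. The group labelled control (3 mice, Klf4loxp/loxp) were littermates of matching sex that carried the same floxed alleles without Cre. Each group held 1 male, replicate 1, and 2 females, replicates 2 and 3, with 1 animal per array.

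NRF2, the protein encoded by *Nfe2l2*, is a transcription factor that is made continuously and destroyed continuously. KEAP1 holds it for ubiquitination, and when electrophiles or oxidants modify cysteines of KEAP1 the degradation stops and NRF2 enters the nucleus. There it pairs with small MAF proteins on antioxidant response elements and raises enzymes that detoxify quinones and heme, make glutathione, reduce thioredoxin and supply NADPH. Mice that lack KEAP1 are known for a thickened cornified layer in the esophagus and forestomach. Because NRF2 is controlled mainly through its stability, the mRNA of *Nfe2l2* says little about its activity, and the target genes are the usual readout.

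Promoter sequences show the element through which NRF2 is known to act on its targets. RefSeq promoter windows on build GRCm38.p6, reaching from 250 bases before to 50 bases after a start site, were held for 8 of the 10 genes, the exceptions being *Hmox1* and *Gclc*. The core of the antioxidant response element, TGACNNNGC, was searched on both strands and was found for 5 of the 8 genes (*Nfe2l2*, *Gclm*, *Srxn1*, *Txnrd1* and *G6pdx*), where 14.0% of all 27025 genes with a window held it. The related AP-1 element TGANTCA, which reads the same on both strands and can overlap the core, was found for 1 of the 8 genes, *Srxn1*, at 2 places, where 8.97% of all genes held it. No match of one element overlapped a match of the other in these windows. The stretches below come from the measured genes with a match before the start site, run 5′ to 3′ on the gene's own strand and carry the matches in capitals. A core on the opposite strand appears as its reverse complement, and a match is a description of these letters, not a site of binding.
Txnrd1 (chr10:82859084-82859152, plus strand): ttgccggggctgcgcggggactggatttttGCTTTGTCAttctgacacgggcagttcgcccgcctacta
Gclm (chr3:122245393-122245461, plus strand): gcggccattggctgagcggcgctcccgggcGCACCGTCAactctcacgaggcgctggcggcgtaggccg
Srxn1 (chr2:152105392-152105515, plus strand): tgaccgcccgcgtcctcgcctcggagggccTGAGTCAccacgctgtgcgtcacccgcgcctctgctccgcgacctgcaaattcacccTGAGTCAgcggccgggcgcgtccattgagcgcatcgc
Nfe2l2 (chr2:75704865-75704913, minus strand): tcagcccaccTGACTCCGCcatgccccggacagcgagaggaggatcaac
The capitals of *Srxn1* are its 2 AP-1 elements, and its TGACNNNGC match lies after the start site and is not shown. The AP-1 element nearer the start site is followed by GC. With these bases it differs from TGACNNNGC only by a G where the search required C. *Txnrd1* has several start sites in the table, and the stretch belongs to the only 1 of its windows with a match. Among the measured genes with a match, the values on the 2 sets of arrays were separate for *Txnrd1* and *Nfe2l2*. *Txnrd1* was lower and *Nfe2l2* higher in the animals labelled mutant, and *Gclm* and *Srxn1* overlapped. Among those with a window and no match, *Gpx2* was separate and higher, and *Nqo1* and *Keap1* overlapped. Over all genes 18.1% had separate groups, and a link between a match and a difference was not tested.

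Values are log2 signals as deposited, so a difference of 1 is a 2-fold ratio, and differences are given as labelled mutant minus labelled control. The targeted gene *Klf4* read 10.28, 10.50 and 10.28 on the arrays labelled mutant and 9.75, 10.15 and 10.06 on those labelled control. All 3 values labelled mutant lay above every control value. *Klf4* was thus not lower where the label says it was deleted (difference 0.37 ± 0.13, SE, limma adjusted p = 0.314). The sources used here do not place its probes relative to the removed part. Every direction below therefore rests on the labels. Keratins of the squamous layers were bright in both groups, with *Krt4* at 13.64 labelled mutant and 13.68 labelled control, and *Krt13* at 13.81 labelled mutant and 13.78 labelled control. Of the 11 squamous markers, 6 had positive and 5 negative differences and none passed. Of the positive ones 3, *Dsg3* (0.73), *Sox2* (0.51) and *Cdh1* (0.21), had separate groups, where 18.1% of all genes did. Other cell types were also present. All 8 fibroblast markers differed downward in the mutant-labelled animals and 3 of these differences passed the test, with array means of the list between 7.50 and 7.74, against 8.29 to 9.06 on the control arrays. All 8 muscle markers also had negative differences, of which none passed. Array means of that list lay between 7.15 and 8.53 on the arrays labelled mutant, against 7.84 to 9.78 on the control arrays. Of all 19938 genes, 8866 had negative differences, and 0.672% of all genes fell past the test. Mutant 1 stood apart on the list of 7 neutrophil markers, with a mean of 5.42, against 4.24 and 4.19 on mutants 2 and 3 and 4.10 to 4.18 on the control arrays. There *S100a8* read 10.01, against 6.08 and 5.80 on mutants 2 and 3 and 4.70 to 4.85 on the control arrays, and *S100a9* read 9.95, against 5.61 and 5.32 on mutants 2 and 3 and at most 6.94 on the control arrays. The more specific neutrophil genes *Ly6g*, *Mpo* and *Elane* were at most 3.09, 4.09 and 3.93 on any array. In tissue RNA of this kind, fewer cells of a type and less RNA per cell cannot be told apart.

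None of the 9 measured genes passed an adjusted p of 0.05 (limma, Benjamini-Hochberg over all genes), where 1.04% of all genes did. At an unadjusted p under 0.05 there were 2, *Hmox1* and *Txnrd1*, both lower, against 12.4% of all genes in either direction and 6.63% in the lower one. The groups did not overlap for 4 of the 9 genes, 2 higher (*Nfe2l2* and *Gpx2*) and 2 lower (*Hmox1* and *Txnrd1*), where 18.1% of all genes had separate groups, 2015 genes higher and 1595 lower. The median difference of the 9 genes was 0.14, with 7 above and 2 below 0, beside a median of 0.022 over all genes. Of all 19938 genes, 11072 were above and 8866 below 0. In none of 16 alternative settings did any of the 9 genes pass.

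**Figure D1:**
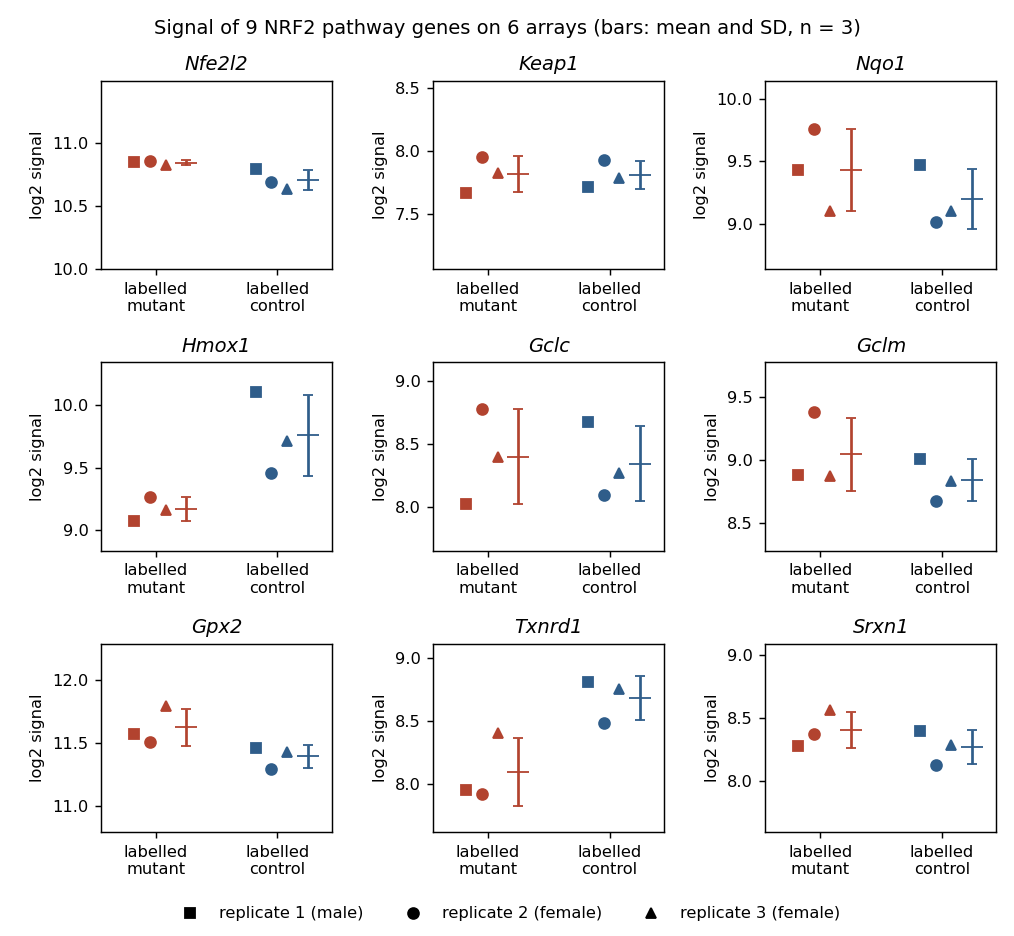
Log2 signal of the 9 measured genes on the 6 arrays, by label; every panel spans 1.5 log2 units, symbols mark the replicate number and sex, and bars beside the points give the mean and SD (n = 3). *Hmox1* and *Txnrd1* lie lower in every animal labelled mutant than in any labelled control, *Nfe2l2* and *Gpx2* lie higher, and the other 5 genes overlap.

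The regulators came first. *Nfe2l2* read 10.85, 10.86 and 10.82 on the arrays labelled mutant and 10.80, 10.69 and 10.63 on those labelled control. All 3 values labelled mutant lay above the controls, but by little: the difference was 0.14 ± 0.09 (SE), with a 95% interval from -0.08 to 0.35 (limma adjusted p = 0.631). The 3 mutant values were also very close together, with an SD of 0.019, which 98.7% of all genes exceeded. *Keap1*, the adaptor that delivers NRF2 to the CUL3 ubiquitin ligase, read 7.66, 7.95 and 7.83 on the arrays labelled mutant and 7.71, 7.93 and 7.78 on the control arrays. Its groups covered nearly the same range, and the difference was 0.0061 ± 0.113 (adjusted p = 0.990), with an interval from -0.26 to 0.27. The sign was not stable: it turned negative when mutant 2, mutant 3, control 1 or control 3 was left out.

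The 2 enzymes that act on quinones and heme differed from each other. *Nqo1*, encoding the quinone reductase that is the most used marker of NRF2 activity, read 9.43, 9.76 and 9.10 on the arrays labelled mutant and 9.47, 9.02 and 9.11 on those labelled control. Mutant 2 was the highest of all 6 arrays, while mutants 1 and 3 lay within the control range, so the groups overlapped. The difference was 0.23 ± 0.19 (adjusted p = 0.709), and with single arrays left out it ranged from 0.067 without mutant 2 to 0.39 without mutant 3. Its 95% interval, as a ratio of mutant to control, ran from 0.864 to 1.60, so neither a modest decrease nor an increase of up to that size was separable from the spread between animals. *Hmox1* encodes heme oxygenase 1, which cleaves heme to biliverdin, carbon monoxide and iron. It read 9.08, 9.26 and 9.16 on the arrays labelled mutant, against 10.10, 9.46 and 9.72 on the control arrays. Every animal labelled mutant was below every control, and the controls were spread more widely (SD 0.094 labelled mutant and 0.32 labelled control, n = 3 each). The ratio was 0.665 with a 95% interval from 0.510 to 0.866, a log2 difference of -0.59 ± 0.16 (adjusted p = 0.176). Over the alternative settings the difference lay between -0.74 and -0.37, and the adjusted p between 0.107 and 0.435.

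Genes of glutathione synthesis gave differences whose 95% intervals included 0. These ran from -0.46 to 0.56 for *Gclc* and from -0.17 to 0.59 for *Gclm*. *Gclc* encodes the catalytic subunit of glutamate-cysteine ligase, the rate-limiting enzyme of glutathione synthesis. It read 8.02, 8.78 and 8.39 on the arrays labelled mutant and 8.67, 8.09 and 8.27 on the control arrays. The lowest and the highest of the 6 values both came from animals labelled mutant, and the difference was 0.054 ± 0.219 (adjusted p = 0.952). It turned to -0.14 without mutant 2 and to -0.07 without control 2. *Gclm*, encoding the modifier subunit of the same ligase, read 8.88, 9.38 and 8.88 on the arrays labelled mutant and 9.01, 8.67 and 8.83 on the control arrays. Mutant 2 stood above the other 5 arrays and the rest overlapped, giving 0.21 ± 0.16 (adjusted p = 0.695). Without mutant 2 the difference was 0.040, and without control 2 it was 0.13. Both subunits varied widely among the animals labelled mutant, with SDs that 6.1% (*Gclc*) and 13.5% (*Gclm*) of all genes exceeded. *Gpx2*, encoding the glutathione peroxidase of epithelia, which spends glutathione to reduce hydroperoxides, read 11.57, 11.51 and 11.79 on the arrays labelled mutant and 11.46, 11.29 and 11.43 on those labelled control. The groups did not overlap, but the gap between mutant 2 and control 1 was small. The ratio of 1.18 had a 95% interval from 0.982 to 1.41 (log2 difference 0.23 ± 0.11, adjusted p = 0.465), and the log2 difference was 0.15 without mutant 3.

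The thioredoxin genes also parted. *Txnrd1* encodes the cytosolic selenoenzyme that passes electrons from NADPH to thioredoxin. It read 7.95, 7.92 and 8.41 on the arrays labelled mutant, against 8.81, 8.48 and 8.76 on the control arrays. The groups were separate, with mutant 3 close below control 2. The ratio was 0.664 with a 95% interval from 0.513 to 0.860, a log2 difference of -0.59 ± 0.16 (adjusted p = 0.164). Under the alternatives the difference ranged from -0.75 to -0.46 and the adjusted p from 0.0600 to 0.480. *Srxn1*, encoding sulfiredoxin, which restores overoxidized peroxiredoxins, read 8.28, 8.37 and 8.56 on the arrays labelled mutant and 8.39, 8.12 and 8.28 on the control arrays. Mutant 3 was highest and the other arrays overlapped, with a difference of 0.14 ± 0.12 (adjusted p = 0.721) and an interval from -0.14 to 0.41. It was 0.059 without mutant 3 and 0.066 without control 2. Differences as low as those of *Hmox1* and *Txnrd1* were seen in 3.46% of all genes.

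Markers of stromal and immune cells were set beside the lower pair, since heme oxygenase 1 is abundant in macrophages. Of 8 macrophage markers, 7 had negative differences, where 8866 of all 19938 genes did. Past the test, the lysozyme gene *Lyz2* fell by 1.57 ± 0.27 and the lysosomal gene *Cd68* rose by 1.11 ± 0.17 (limma adjusted p = 0.046 and 0.030). The defining marker *Adgre1* averaged 4.47 in animals labelled mutant and 4.66 in controls. Both means were under 4.72, the 40th percentile of gene means that served as the limit for dim genes. Single values on mutant 1 (4.73) and control 3 (4.85) were above that limit. The mean of the 8 macrophage markers was 6.30, 5.84 and 5.80 on mutants 1 to 3. On controls 1 to 3 it was 6.08, 6.38 and 6.41. *Hmox1* was lowest on mutant 1 (9.08), which had the highest macrophage mean of the mutant arrays. It was highest on control 1 (10.10), which had the lowest macrophage mean of the controls. *Txnrd1* was lowest on mutant 2 (7.92) and highest on control 1 (8.81). The part of these cells in the differences of *Hmox1* and *Txnrd1* was not tested. Without mutant 1, *Hmox1* differed by -0.54 and *Txnrd1* by -0.52.

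**Figure D2:**
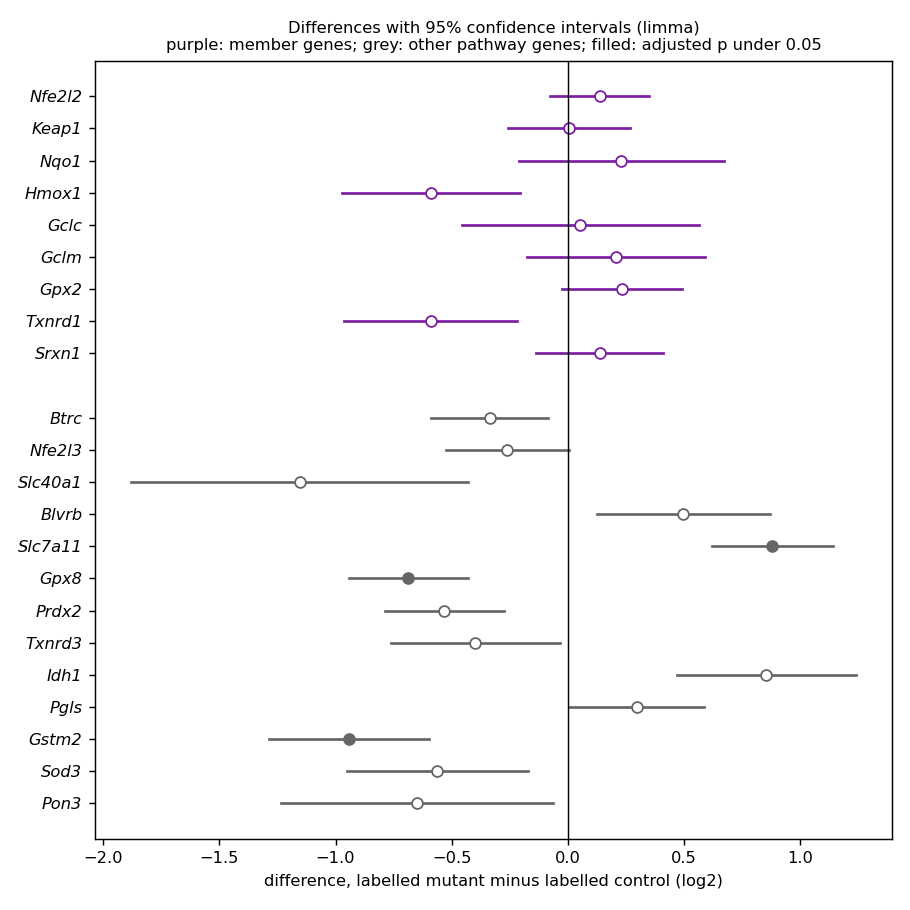
Log2 difference, labelled mutant minus labelled control, with its 95% confidence interval from limma, for the 9 measured genes (purple) and for 13 other pathway genes (grey). Filled points passed an adjusted p of 0.05: 0 of the 9 genes, and *Slc7a11*, *Gpx8* and *Gstm2* among the others.

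The 9 genes did not vary as a block across the arrays. Over the 6 arrays, which share the labels and the animals, *Nqo1* ran with *Gclm* (Pearson r = 0.910, n = 6), *Gclc* with *Gclm* (r = 0.830), *Srxn1* with *Gpx2* (r = 0.880) and *Hmox1* with *Txnrd1* (r = 0.835). *Nfe2l2* and *Txnrd1* ran in opposite directions (r = -0.690). Each r was taken around the gene's 6-array mean, so a difference between the labelled groups is part of it. *Hmox1* and *Txnrd1* were both lower and *Nfe2l2* higher in the animals labelled mutant, which enters their r values. These values are descriptions over 6 points and carry no test. Among the controls, control 1 gave the highest value for 8 of the 9 genes, where it was highest for 39.1% of all genes. The exception was *Keap1*, which was lowest there. Control 2 gave the lowest value for all 7 targets, where it was lowest for 37.5% of all genes. Among the animals labelled mutant the order differed by gene: mutant 2 was highest for 6 genes, including *Nqo1*, *Gclc* and *Gclm*, and mutant 3 for *Txnrd1*, *Srxn1* and *Gpx2*. With each gene set to its own 6-array mean, the 9 genes averaged -0.13, 0.098 and 0.0041 on mutants 1 to 3, and 0.17, -0.13 and -0.011 on controls 1 to 3. Outside the pathway and marker lists, the genes closest to that average profile were *Gm4952*, *Crlf2* and *Gabra2* (r = 0.989, 0.987 and 0.985 over 6 arrays). They were picked as the highest r among all genes off the lists. With 6 points, such a search yields high values by selection. *Gm4952* and *Gabra2* stayed under the dim limit on every array.

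**Figure D3:**
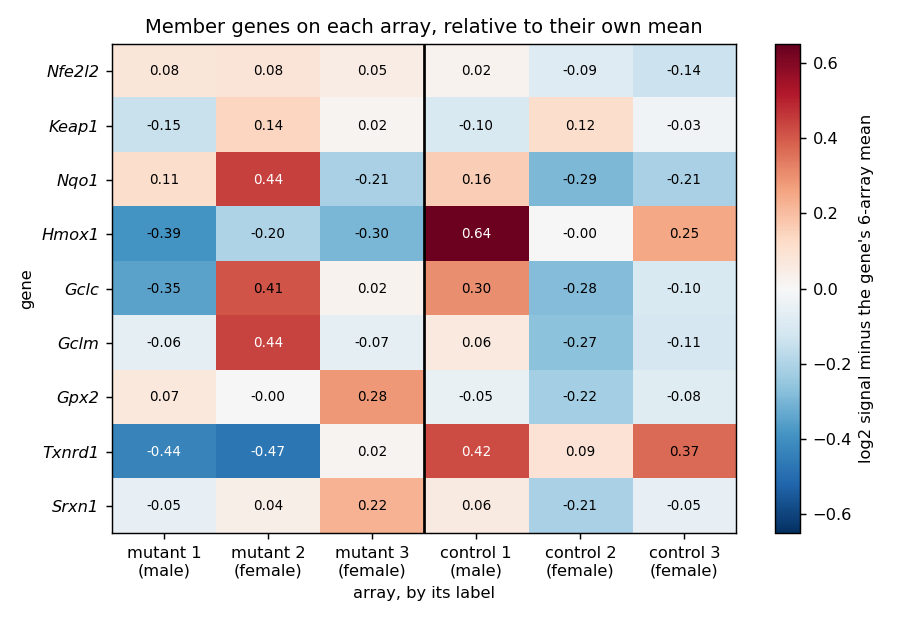
Each measured gene on each array as log2 signal minus its own mean over the 6 arrays, with arrays labelled mutant on the left. The column of control 1 is above 0 for 7 of the 9 genes, *Hmox1* is below 0 on all 3 arrays labelled mutant, and *Txnrd1* on 2 of them.

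Differences were also taken within each sex, control 1 being the male control. All 9 genes had a lower difference in the male pair than in the females, where 57.4% of all genes did. *Gclc* differed by -0.65 between the males and by 0.41 between the females, *Hmox1* by -1.02 and -0.37, and *Gclm* by -0.13 and 0.38. The signs were opposite between the sexes for *Keap1*, *Nqo1*, *Gclc*, *Gclm* and *Srxn1*. None of the 9 passed the test of the difference between sexes (limma interaction term, smallest adjusted p = 0.638, for *Gclc*), where 0.0451% of all genes passed. At an unadjusted p under 0.05 there were 2, *Gclc* and *Hmox1*, against 5.82% of all genes. The male difference comes from 1 array against 1, so the spread between animals in this test is measured among the 4 female arrays alone, and sex cannot be told apart from the individual animals. Mutant 1, on which *S100a8* and *S100a9* were high, is the mutant animal of the male pair. Control 1 had the lowest control mean on the muscle list, 7.84, against 9.78 and 9.08 on controls 2 and 3. It was also lowest of the controls on the fibroblast list, at 8.29, against 8.95 and 9.06. On the muscle list mutant 1, at 8.41, was above control 1. The part of these features in the sex differences and in the order of the controls was not tested.

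**Figure D4:**
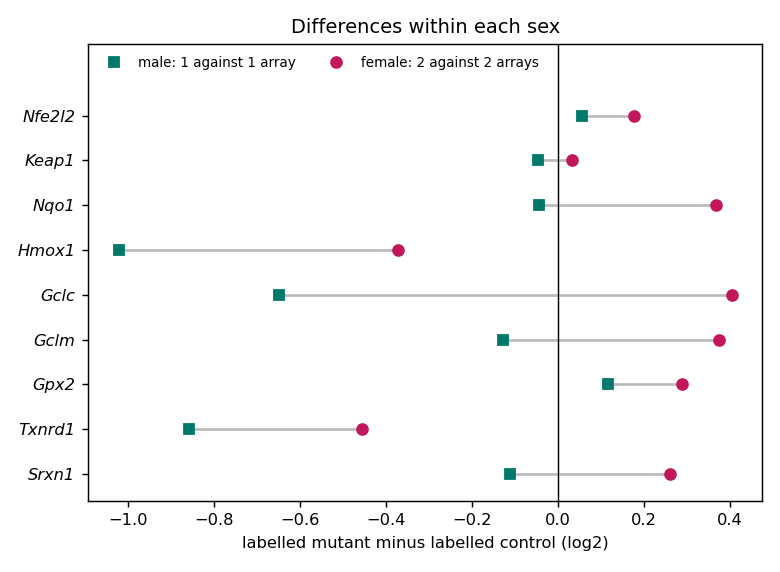
Log2 difference, labelled mutant minus labelled control, for each measured gene in the male pair (squares, 1 array against 1) and in the females (circles, 2 against 2). The square lies left of the circle for all 9 genes; each square has no replicate.

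Other genes around NRF2 were read from 7 lists holding 98 genes, of which 91 were measured. Of these, 1 rose and 2 fell, where 0.366% of all genes rose and 0.672% fell, 88 did not pass, and the median difference was -0.06. On the list of glutathione supply and use, with 11 genes measured, *Slc7a11* rose and *Gpx8* fell, and on the list of conjugation, reduction and export *Gstm2* fell. *Slc7a11* encodes the cystine transporter that brings in the cysteine precursor for glutathione, and it is a target of both NRF2 and ATF4. It read 10.04, 9.99 and 9.73 on the arrays labelled mutant and 8.99, 9.10 and 9.02 on those labelled control. The groups were far apart relative to their spread, and *Slc7a11* rose by 0.88 ± 0.11 (adjusted p = 0.0164). *Slc3a2*, encoding the heavy chain that pairs with it and named here after its values were seen, differed by 0.61 ± 0.17 (adjusted p = 0.173). Over all genes 18.1% had separate groups, 2015 genes higher and 1595 lower. On this list 2 genes, *Slc7a11* and *Slc3a2*, had separate and higher groups, and 3 had separate and lower ones. The lower ones were *Gpx8*, *Chac1* (-0.44 ± 0.10, adjusted p = 0.120) and *Gsr* (-0.43 ± 0.14, adjusted p = 0.229). *Gstm2*, a glutathione transferase of the mu class, read 7.88, 8.34 and 8.20 on the arrays labelled mutant and 9.09, 8.90 and 9.26 on the control arrays, and fell by 0.94 ± 0.15 (adjusted p = 0.0357). Mu class genes are similar in sequence, so signal may be shared between them. *Gpx8*, encoding a peroxidase of the endoplasmic reticulum, read 6.06, 6.20 and 5.91 on the arrays labelled mutant and 6.65, 6.75 and 6.84 on the control arrays, and fell by 0.69 ± 0.11 (adjusted p = 0.0381). The fibroblast markers given above were lower on the same arrays, and their part in these differences was not tested. The sizes held with single arrays left out, at 0.82 to 0.98 for *Slc7a11*, -1.04 to -0.82 for *Gstm2* and -0.76 to -0.61 for *Gpx8*, while the calls did not: none of the 3 passed without mutant 1, mutant 2 or control 3, and *Slc7a11* was the only 1 of them to pass without mutant 3, control 1 or control 2. None passed in the females alone, with differences of 0.80, -0.81 and -0.74 for *Slc7a11*, *Gstm2* and *Gpx8* (adjusted p = 0.113, 0.146 and 0.147). Over the alternatives the adjusted p ranged from 0.00803 to 0.113 for *Slc7a11*, from 0.0173 to 0.156 for *Gstm2* and from 0.0219 to 0.181 for *Gpx8*.

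Partners and competitors of NRF2 gave small differences. Of 14 regulators none passed, 11 were lower and the median was -0.13, where 8866 of all 19938 genes were lower. *Btrc*, encoding a ubiquitin ligase adaptor that acts on NRF2 apart from KEAP1, differed by -0.34 ± 0.11, and *Nfe2l3*, a related factor, by -0.26 ± 0.11 (adjusted p = 0.244 and 0.411). Among 10 further heme, iron and quinone genes none passed. The iron exporter gene *Slc40a1* differed by -1.15 ± 0.31 and the biliverdin reductase gene *Blvrb* by 0.50 ± 0.16 (adjusted p = 0.162 and 0.245). The other biliverdin reductase gene on the list, *Blvra*, differed by 0.022 ± 0.098 (adjusted p = 0.955). *Slc40a1*, known from macrophages, read 5.78, 6.68 and 6.02 on the arrays labelled mutant and 7.65, 6.68 and 7.60 on the control arrays.

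None of 12 thioredoxin and peroxiredoxin genes passed. *Prdx2*, a cytosolic peroxiredoxin, read 10.82, 10.84 and 10.89 on the arrays labelled mutant and 11.49, 11.19 and 11.46 on the control arrays, a difference of -0.53 ± 0.11 (adjusted p = 0.0864). *Txnrd3*, a relative of *Txnrd1*, differed by -0.40 ± 0.16 (adjusted p = 0.353). For NADPH supply none of 7 genes passed, and 5 were lower by at most 0.16. *Idh1*, encoding the cytosolic NADP-dependent isocitrate dehydrogenase, read 11.25, 11.42 and 10.98 on the arrays labelled mutant and 10.51, 10.07 and 10.52 on the control arrays. Its groups were separate, with a difference of 0.85 ± 0.17 (adjusted p = 0.0724). *Pgls*, of the pentose phosphate pathway, differed by 0.30 ± 0.12 (adjusted p = 0.390). Of 25 genes of conjugation, reduction and export, *Gstm2* fell and 24 did not pass. Over all 25 the differences were positive for 14 and negative for 11. Groups were separate and higher for 5 of the 25 and separate and lower for 5, where 18.1% of all genes had separate groups. Among 12 antioxidant enzymes less tied to NRF2 none passed, with *Sod3*, the extracellular superoxide dismutase gene, at -0.56 ± 0.17 and the paraoxonase gene *Pon3* at -0.65 ± 0.25 (adjusted p = 0.204 and 0.344).

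**Figure D5:**
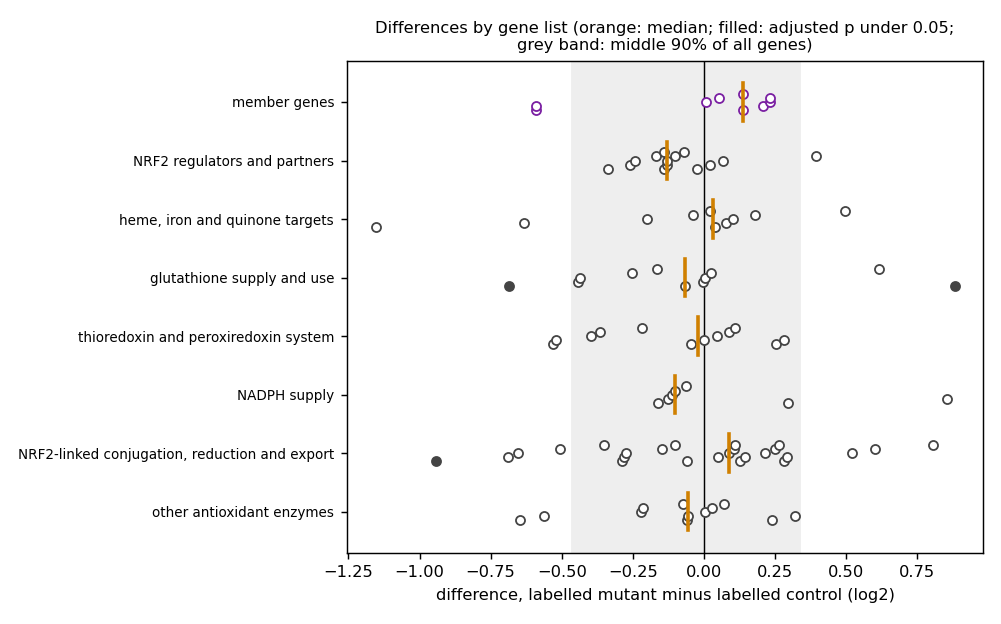
Log2 differences, labelled mutant minus labelled control, of the 9 measured genes and of the 91 genes on 7 pathway lists; the orange bar is the median of a list, filled points passed an adjusted p of 0.05, and the grey band spans the middle 90% of all genes, from -0.46 to 0.34. *Hmox1* and *Txnrd1* are the 2 points left of the band in the top row.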

How the data were processed

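The deposited table holds log2 values of 28853 probe sets on 6 arrays, made from column-purified total RNA that was amplified with poly(T) priming and biotinylated, as the labels' protocols state. Partek 6.4 is named in the submitters' processing notes. How the authors corrected background, normalized and summarized is not given in the sources used here. Those steps decide how strongly the differences of dim probe sets shrink. Values were taken to be on a log2 scale from their range (array medians 5.01 to 5.13). Names came from the platform annotation, with symbols of GRCm38.p6. Of them 21789 named 1 gene, 1621 several and 5443 were unnamed here. The probe set with the highest mean stood for a gene. The fit used R 4.3.3 and limma 3.58.1 (lmFit, eBayes, two-sided, genotype alone, 7.58 degrees of freedom after moderation). Array number limits the precision, and an exact permutation test of 3 against 3 cannot go below p = 0.1. On simulated data for this comparison (19938 genes), the fit found 14% of changes of 0.5 on the log2 scale, 86% of changes of 1, and 100% of those of 2 and of 3, and 12 of its 162 calls were false. The text names all members, *Klf4*, the passing genes of each pathway list (up to 6, or the 2 with the smallest p where none passed) and the 3 genes most like the members' mean profile. Marker genes, *Slc3a2*, *Chac1*, *Gsr* and *Blvra* are named outside this rule, after their values were seen. Members, lists and tests were chosen with earlier results of these data known. Python 3.11.15 and matplotlib 3.10.9 served for tables and plots.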

Additional observations from a re-analysis of the deposited data

How the results depend on the processing

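All 16 alternatives left the 9 member genes without a call: quantile normalization, median centring, removal of dim probe sets, other rules for probe sets, the replicate block, sex as a covariate, females alone, an intensity trend, array weights and each array left out. Directions also held, though not sizes (*Gclm* ranged from 0.040 to 0.38, *Nqo1* from 0.067 to 0.39), except for *Keap1* and *Gclc*, whose differences ranged from -0.062 to 0.081 and from -0.14 to 0.24 with single arrays left out. The count over all genes, 207, moved to 81 with the replicate block, 370 with array weights, 83 in the females and 44 (without control 3) to 193 (without control 1) with single arrays left out. It was 93 without mutant 1, 93 without mutant 2, 102 without mutant 3 and 106 without control 2. Of the 91 pathway list genes, 3 passed, against 1 with median centring, 5 with array weights, 0 with the replicate block, 0 in the females and 0 to 2 with single arrays left out. With the replicate block the adjusted p was 0.0608 for *Slc7a11*, 0.0883 for *Gstm2* and 0.11 for *Gpx8*. The cause was not tested. Same-numbered animals did not deviate together (correlations of -0.17, 0.090 and -0.10 across genes), so the numbers were not taken as pairs. Over all genes the median difference was 0.022, and 0.058 after median centring. With 3 arrays a group, changes near 0.5 on the log2 scale are mostly missed, so 0 calls is no evidence that the genes were alike in both groups.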
